A study of Mus musculus with 12 samples.

Results

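The genes described here are 10 genes of the NRF2 antioxidant pathway and of glutathione synthesis in mouse liver. They are *Nfe2l2*, *Keap1*, *Gclc*, *Gclm*, *Gsr*, *Slc7a11*, *Txnrd1*, *Srxn1*, *Nqo1* and *Hmox1*, and they were chosen by symbol from the 48795 genes of the deposited count table. Each symbol matched 1 gene, and 9 of the 10 had enough counts to be tested. *Slc7a11* did not.

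RNAseq was performed on liver tissue of 12 female mice, 4 months old, kept on normal chow, with littermates of both genotypes matched for age and sex. Each of 4 groups held 3 mice. Mice 254, 257 and 323 (*Nts*+/+) and mice 277, 303 and 319 (*Nts*-/-) ate ad libitum, and mice 265, 282 and 322 (*Nts*+/+) and mice 284, 290 and 295 (*Nts*-/-) went without food for 22 h. *Nts* encodes neurotensin, a gut and brain peptide, and *Nts*-/- mice lack it in the whole body, so no tissue of origin is set apart. The design allows the livers to be compared by feeding state within each genotype, by genotype within each feeding state, and for a fasting response that differs between genotypes.

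Counts on *Nts* itself were found only under the *Nts*-/- label, which is not what that label alone would give. The reason was not tested. Its expected count was 0 in all 6 livers labelled *Nts*+/+. Under the *Nts*-/- label it was 46, 40 and 15 in the fed and 12, 4 and 18 in the fasted livers. Genotypes are therefore given as labelled throughout, and the direction of each genotype comparison rests on those labels. Total expected counts per mouse ranged from 21999656 to 45273081, so that 3 counts, taken as the floor of detection, corresponded to between 0.0663 and 0.136 CPM (counts scaled to the size of the library). The summed level of 6 hepatocyte markers was between 106647 and 139062 CPM in every liver, and that of 4 pancreas markers was at most 0.0362 CPM, with *Cela3b* and *Ctrb1* at 0 in all 12.

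NRF2, the product of *Nfe2l2*, is a transcription factor that is held in the cytoplasm and sent for degradation by KEAP1 while the cell is unstressed. When electrophiles or oxidants modify cysteines of KEAP1, NRF2 accumulates, pairs with a small MAF protein and binds antioxidant response elements of genes for glutathione synthesis, thiol reduction, quinone reduction and heme breakdown. This control acts largely on NRF2 protein, and levels of *Nfe2l2* RNA do not report it. In the liver, these enzymes protect hepatocytes from drugs, bile acids and oxidants, and glutathione is a main reserve of cysteine.

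The antioxidant response element is shown because it is the sequence by which NRF2 recognizes its targets. Its core, TGACNNNGC, was searched on both strands in RefSeq promoter windows of build GRCm38.p6, which run from 250 bases before to 50 bases after a gene's start. Windows were matched by symbol for 7 of the 10 genes, and 4 of the 7 held the core. *Gclc*, *Gsr* and *Hmox1* were not matched. The core was present in 12.4% of all 32851 windows and in the windows of 14% of 27025 genes. Each site is printed 5′ to 3′ on the strand of the gene, with 10 bases on either side, and capitals mark the core. In *Gclm*, *Txnrd1* and *Srxn1* the capitals read as its reverse complement.
Nfe2l2, chr2:75704885-75704913, minus strand: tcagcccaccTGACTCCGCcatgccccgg
Gclm, chr3:122245413-122245441, plus strand: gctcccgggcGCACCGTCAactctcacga
Txnrd1, chr10:82859104-82859132, plus strand: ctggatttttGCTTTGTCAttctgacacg
Srxn1, chr2:152105542-152105570, plus strand: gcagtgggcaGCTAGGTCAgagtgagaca

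The first base of the core lay 240 bases before the RefSeq start in *Nfe2l2*, 134 before it in *Gclm*, 92 before it in the second of 3 *Txnrd1* windows and 29 bases after it in *Srxn1*. Unlike in the other windows, the bases after the *Nfe2l2* start were not found in an annotated transcript of the gene. Its distance is therefore less certain. The windows of *Keap1*, *Nqo1* and *Slc7a11* did not hold these letters. A match describes the sequence and is not evidence of binding.

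Fasting was the comparison in which these genes differed. Across both genotype labels, *Srxn1*, which restores overoxidized peroxiredoxins, was 2.04-fold higher in fasted than in fed livers. *Gsr*, which regenerates reduced glutathione, was 1.26-fold higher. *Gclc*, the catalytic subunit of the rate-limiting enzyme of glutathione synthesis, was 1.67-fold lower. The other 6 tested genes did not pass the threshold, a Benjamini-Hochberg adjusted p under 0.05 over all 13812 tested genes in edgeR's quasi-likelihood test.

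The share of these genes that passed was close to the share of all genes. In the mean of both genotype labels, 3 of 9 passed, where 32.8% of all tested genes did. They were 2 higher genes, with a background of 16%, and 1 lower gene, with a background of 16.8%. In *Nts*+/+ livers, 2 of 9 passed, both higher, against 18.1% of all genes in either direction and 8.91% higher. In *Nts*-/- livers, 1 of 9 passed as higher, against 16.8% in either direction and 7.7% higher. Fed and fasted livers did not overlap for 4 of 9 genes in *Nts*+/+ (*Srxn1*, *Gsr*, *Nqo1* and *Gclc*), against 36% of all genes, and for 3 of 9 in *Nts*-/- (*Srxn1*, *Keap1* and *Gclm*), against 35.2%. Such shares are near the background and are not a result particular to these genes. The median log2 fold change of the 9 genes, fasted minus fed, was 0.16 in *Nts*+/+ livers and 0.20 in *Nts*-/- livers, and that of all tested genes was -0.0032 and -0.011. The plot of all members by mouse shows the counts behind these values.

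**Figure D1:**
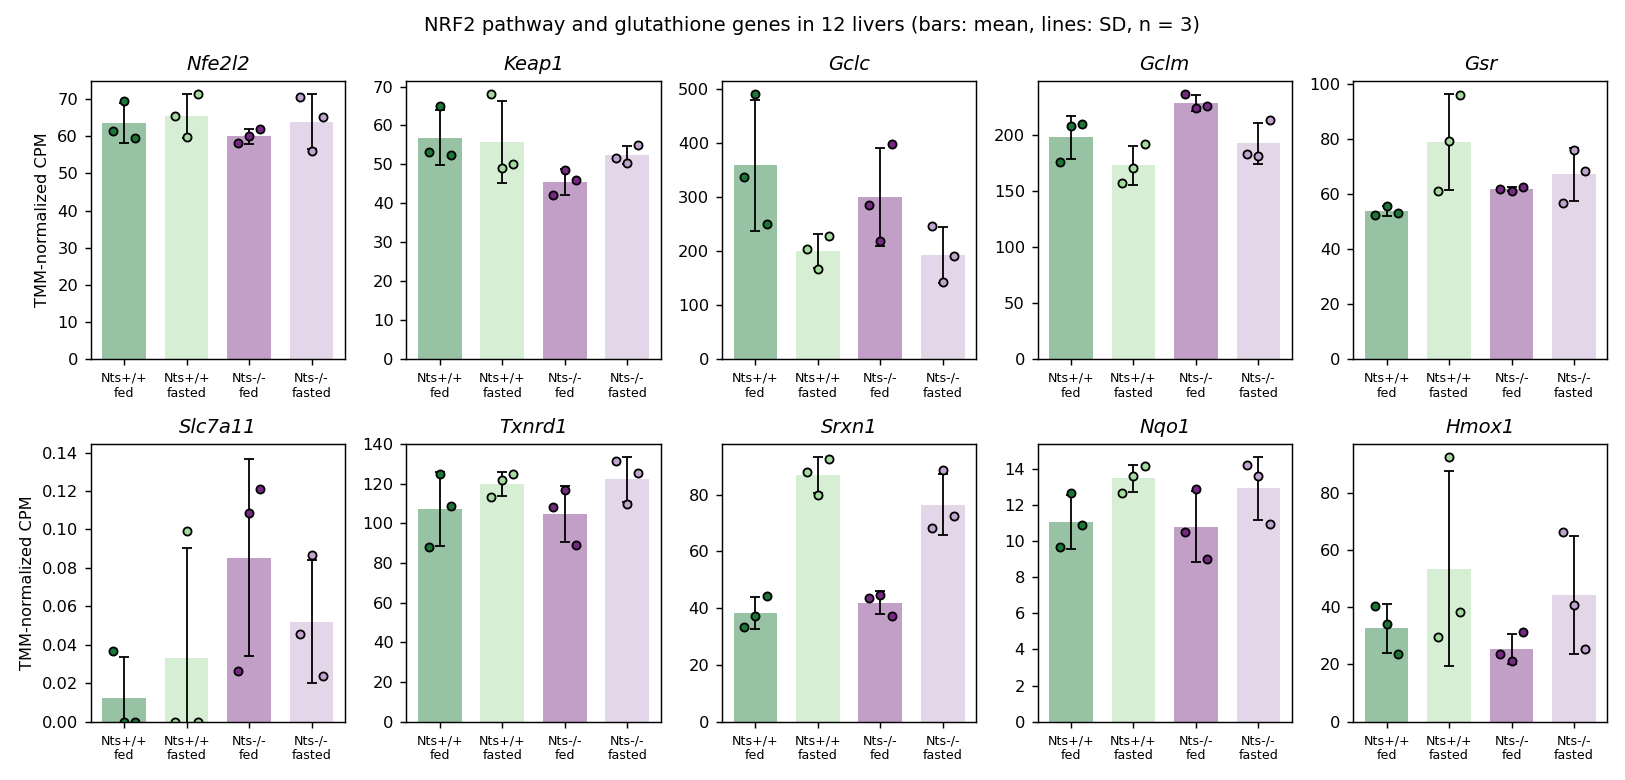
TMM-normalized CPM of each of the 10 genes in each of the 12 livers, 1 panel per gene, with a point for each mouse, a bar for the mean of its group of 3 and a line for the SD. *Srxn1* is the panel in which all 6 fasted livers lie above all 6 fed livers, and 1 fasted *Nts*+/+ liver (mouse 282) stands far above the others for *Hmox1*.

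Neither the factor nor its inhibitor passed the test with fasting. *Nfe2l2* (ENSMUSG00000015839, chr2:75675513-75704641) was between 56.1 and 71.3 CPM in all 12 livers, with a mean of 63.2 CPM. Its log2 fold change with fasting, over both genotype labels, was 0.07 ± 0.084 (SE), with a 95% interval from -0.11 to 0.25 and an adjusted p of 0.571 in edgeR's quasi-likelihood test. Group means ran from 60.0 CPM in fed *Nts*-/- to 65.5 CPM in fasted *Nts*+/+ livers, and all 4 groups overlapped. *Keap1* (ENSMUSG00000003308, chr9:21229730-21239332), the adaptor that presents NRF2 to a ubiquitin ligase, was between 42.1 and 68.0 CPM. Its response to fasting was 0.09 ± 0.099 on the log2 scale (adjusted p = 0.532), and fed and fasted livers overlapped over both labels. Within the *Nts*-/- label, the fasted livers (50.4 to 55.1 CPM) were all above the fed ones (42.1 to 48.6 CPM), with a log2 fold change of 0.20 ± 0.14 that did not pass (adjusted p = 0.350). Expected counts of *Keap1* were whole in 2 of 12 mice, so part of its reads was shared with other features by the counting.

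*Gclc* (ENSMUSG00000032350, chr9:77754535-77794485) joins glutamate to cysteine in the first step of glutathione synthesis. In *Nts*+/+ livers it was at 336, 490 and 250 CPM when fed and at 203, 166 and 228 CPM when fasted. Under the *Nts*-/- label it was at 285, 218 and 397 CPM when fed and at 246, 142 and 190 CPM when fasted. Every fasted *Nts*+/+ liver was below every fed one, as for 17.9% of all genes, whereas in *Nts*-/- livers the fed and fasted ranges overlapped. Its coefficient of variation was 33.9% in *Nts*+/+ and 30.1% in *Nts*-/- livers when fed, and 15.6% and 27.0% when fasted.

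Averaged over both labels, *Gclc* fell by 0.74 on the log2 scale (SE 0.20, adjusted p = 0.0124). The estimate was -0.85 in *Nts*+/+ livers (SE 0.28, adjusted p = 0.0545) and -0.64 in *Nts*-/- livers (SE 0.28, adjusted p = 0.137), so neither genotype passed on its own. The *Nts*+/+ estimate was near the threshold and depended on single mice. It was -0.55 without mouse 257 (adjusted p = 0.204), the highest fed liver, and -1.05 without mouse 323 (adjusted p = 0.0241), the lowest fed liver of that label. It also passed without mouse 319 (adjusted p = 0.0401), 303 (0.0452) or 290 (0.0485), and not in the other 8 such fits. With all mice it passed under DESeq2 (adjusted p = 0.0132), under upper-quartile normalization (0.0499), with a minimum of 10 counts per mouse (0.0480) and with only the mice compared (0.0425). The *Nts*-/- estimate ran from -0.85 without mouse 284 to -0.39 without mouse 319 and passed in none of these 12 fits. The mean over both labels passed in all 12, with estimates from -0.84 to -0.60.

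*Gclm* (ENSMUSG00000028124, chr3:122245557-122270732) encodes the modifier subunit of the same enzyme. Fed livers were at 176, 208 and 210 CPM in *Nts*+/+ and 236, 224 and 225 CPM in *Nts*-/-. Fasted livers were at 157, 170 and 192 CPM in *Nts*+/+ and 183, 181 and 213 CPM in *Nts*-/-. The fasted livers labelled *Nts*-/- were all below the fed ones, as for 18.1% of all genes, and those labelled *Nts*+/+ overlapped with theirs. Its fasting response was -0.22 ± 0.089 on the log2 scale (adjusted p = 0.0721), which did not pass. It passed in edgeR under upper-quartile normalization (adjusted p = 0.0330), in DESeq2 (0.0490) and, of the 12 fits that left out 1 mouse, without mouse 322 (0.0487). Expected counts of *Gclm* were whole in 0 of 12 mice, so its reads were partly shared with other features.

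The ratio of *Gclc* to *Gclm* counts, examined after the values of both genes were seen and so only described, was 1.82 ± 0.586 (SD, n = 3) in fed and 1.15 ± 0.163 in fasted *Nts*+/+ livers. Under the *Nts*-/- label it was 1.31 ± 0.403 when fed and 1.01 ± 0.297 when fasted. The ranges of fed and fasted livers overlapped under both labels.

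*Gsr* (ENSMUSG00000031584, chr8:33652523-33698163), glutathione reductase, uses NADPH to return oxidized glutathione to its reduced form. In *Nts*+/+ livers it was at 52.6, 55.8 and 53.3 CPM when fed and at 61.3, 79.6 and 96.1 CPM when fasted. Livers labelled *Nts*-/- had 61.9, 61.1 and 62.7 CPM when fed and 57.0, 76.1 and 68.6 CPM when fasted. Fed livers of either label were tightly grouped, and fasted ones were spread out. All fasted livers exceeded all fed ones under the *Nts*+/+ label, as for 18.1% of all genes, and fasted mouse 284 was below all 3 fed livers under the *Nts*-/- label.

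*Gsr* was higher in fasted *Nts*+/+ livers by 0.55 on the log2 scale (SE 0.15, adjusted p = 0.0228) and higher over both labels by 0.34 (SE 0.11, adjusted p = 0.0269). Under the *Nts*-/- label the estimate was 0.12 (SE 0.15, adjusted p = 0.632). The difference between these responses, -0.43 ± 0.21, did not pass (adjusted p = 0.897, 95% interval -0.89 to 0.027), so the response is not shown to depend on the genotype label. The *Nts*+/+ call was lost without mouse 254 (adjusted p = 0.0839), 257 (0.0544), 323 (0.0514), 282 (0.0723) or 322 (0.0910). The call over both labels was lost without mouse 254 (0.0572), 282 (0.0524), 322 (0.0670), 277 (0.0526), 290 (0.0710) or 295 (0.0514).

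*Slc7a11* (ENSMUSG00000027737, chr3:49892526-50443614) encodes the cystine importer of the cystine/glutamate antiporter. It had 15 counts over all 12 livers, with 0 to 3 in each and 0 in 4 of them, which is at or below the floor in every liver. Livers labelled *Nts*+/+ held 4 of these counts, in 2 mice, and those labelled *Nts*-/- held 11, in 6 mice. No fold change can be given at this depth.

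*Srxn1* (ENSMUSG00000032802, chr2:152105516-152111376), sulfiredoxin, had the largest response of the 9 tested genes. In *Nts*+/+ livers it was at 33.4, 37.3 and 44.3 CPM when fed and at 87.9, 80.1 and 92.8 CPM when fasted. The levels under the *Nts*-/- label were 43.7, 44.8 and 37.2 CPM when fed and 68.4, 88.7 and 72.5 CPM when fasted. The lowest fasted liver, at 68.4 CPM, was above the highest fed liver, at 44.8 CPM, and 8.05% of all genes were higher with fasting in this non-overlapping way.

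The means of *Srxn1* were 38.3 ± 5.49 CPM (SD, n = 3) in fed and 86.9 ± 6.40 CPM in fasted *Nts*+/+ livers, and 41.9 ± 4.08 CPM and 76.5 ± 10.7 CPM in *Nts*-/- livers. The log2 fold change was 1.18 in *Nts*+/+ (SE 0.14, adjusted p = 0.00016) and 0.87 in *Nts*-/- livers (SE 0.14, adjusted p = 0.00101). Over both labels it was 1.03 (SE 0.099, adjusted p = 6.92e-06), and it passed in each of the 12 fits that left out 1 mouse, with estimates from 0.97 to 1.09. The responses under the labels differed by -0.31 ± 0.20 on the log2 scale, which did not pass (adjusted p = 0.897).

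*Txnrd1* (ENSMUSG00000020250, chr10:82859206-82897724), cytosolic thioredoxin reductase, was between 88.0 and 125 CPM in fed livers, with a median of 108 CPM, and between 109.6 and 132 CPM in fasted livers, with a median of 123 CPM. The ranges overlapped, and the log2 fold change of 0.19 ± 0.10 did not pass (adjusted p = 0.173). *Nqo1* (ENSMUSG00000003849, chr8:107388225-107403206), the quinone reductase often used to read out NRF2 activity, was low in all livers, with 223 to 522 counts each. It was between 8.98 and 12.9 CPM when fed (median 10.7 CPM) and between 10.9 and 14.2 CPM when fasted (median 13.6 CPM). Its response was 0.27 ± 0.11 on the log2 scale (adjusted p = 0.0856), which passed without mouse 303 (0.0318) or mouse 295 (0.0493) and in none of the other 10 such fits.

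*Hmox1* (ENSMUSG00000005413, chr8:75093621-75100589), which opens the heme ring and is also strongly expressed by macrophages that clear red cells, was at 40.5, 34.1 and 23.5 CPM in fed and 29.7, 92.5 and 38.2 CPM in fasted *Nts*+/+ livers. Livers labelled *Nts*-/- were at 23.7, 21.1 and 31.4 CPM when fed and 66.2, 40.8 and 25.4 CPM when fasted. Mouse 282, at 92.5 CPM, and mouse 284, at 66.2 CPM, were the highest, and the ranges of fed and fasted livers overlapped under both labels. The log2 fold change over both labels was 0.75 ± 0.33 and did not pass (adjusted p = 0.110). Without mouse 282 it was 0.43, and the *Nts*+/+ estimate moved from 0.71 to 0.054.

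Macrophage RNA is relevant to *Hmox1*, because bulk liver holds Kupffer cells. The summed level of 8 Kupffer cell and macrophage markers ranged from 500 to 566 CPM in fed and from 255 to 435 CPM in fasted *Nts*+/+ livers, and mouse 282 had the lowest level of all, 255 CPM. In *Nts*-/- livers it ranged from 309 to 439 CPM when fed and from 314 to 490 CPM when fasted. Mouse 282 had both the highest *Hmox1* level and the lowest macrophage marker level. The cell source of *Hmox1* RNA was not tested. Of these 8 markers, 2 passed over both labels, both lower, where 16.8% of all genes passed as lower. In bulk samples, fewer cells of a type and less RNA per cell cannot be told apart. None of the 8 markers was at 0 in all mice. The 6 erythroid markers summed to 356 CPM in mouse 282, within the range of 233 to 627 CPM over all livers.

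Summed markers of other cells were also compared between fed and fasted livers. Sinusoidal endothelial markers (5 genes) summed to 123 to 178 CPM in fed and 106 to 114 CPM in fasted *Nts*+/+ livers, and to 142 to 156 CPM and 103 to 124 CPM in *Nts*-/- livers. Of these genes 1 passed as higher and 2 as lower over both labels. Cholangiocyte markers (4 genes) summed to 31.9 to 46.0 CPM in fed and 11.5 to 23.5 CPM in fasted *Nts*+/+ livers, and to 29.6 to 31.6 CPM and 13.4 to 27.7 CPM in *Nts*-/- livers. Stellate cell markers (5 genes) summed to 216 to 236 CPM in fed and 179 to 204 CPM in fasted *Nts*+/+ livers, and to 179 to 256 CPM and 186 to 198 CPM in *Nts*-/- livers, and 3 passed as lower. Of the 3 cholangiocyte markers tested, 1 passed as lower over both labels. The background was 16% of all genes higher and 16.8% lower. The part of these markers in the differences of *Srxn1*, *Gsr* and *Gclc* was not tested.

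**Figure D2:**
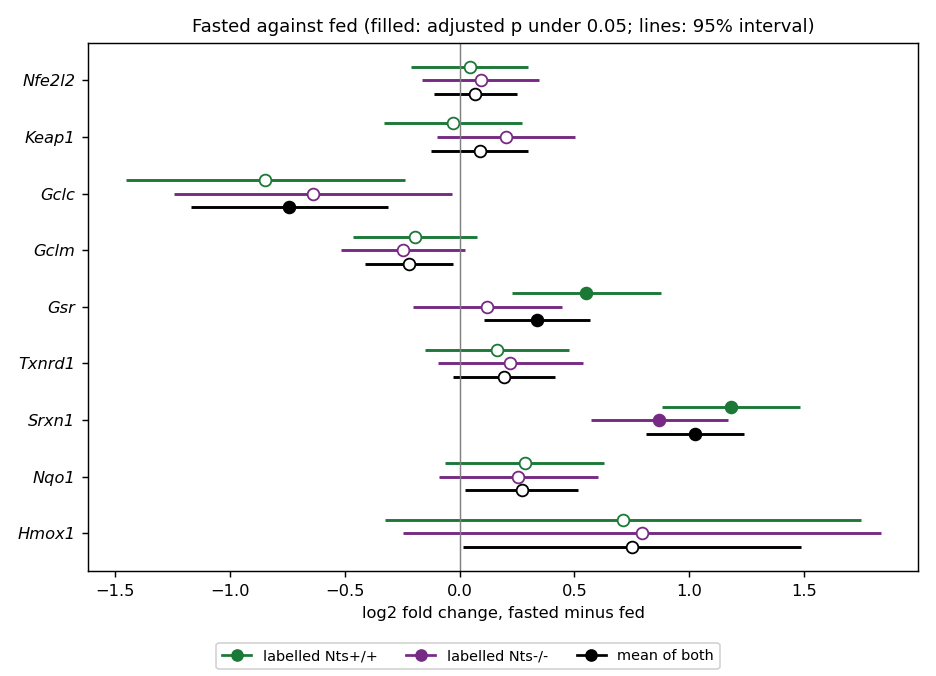
Log2 fold change of each tested gene, fasted minus fed, in livers labelled *Nts*+/+ and *Nts*-/- and as their mean, with points for the edgeR estimate and bars for its 95% interval. The mean for *Srxn1* is 1.03, and that for *Gclc* is on the other side of 0, at -0.74.

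Between genes, levels were compared as CPM per kilobase of the longest coding transcript of each gene in a current annotation. On this scale, *Gclc* was highest, at 73.6 CPM per kilobase on average, followed by *Txnrd1* at 31.3 and *Gclm* at 31.2. *Hmox1* was at 24.7, *Nfe2l2* at 17.6, *Keap1* at 13.3, *Gsr* at 13.1, *Srxn1* at 8.33 and *Nqo1* at 4.39 CPM per kilobase. These means pool fed and fasted livers, between which *Gclc*, *Gsr* and *Srxn1* differed. The ranges over the 12 livers were wide, from 39.8 to 137 CPM per kilobase for *Gclc* and from 13.4 to 58.7 for *Hmox1*, which overlap. From *Txnrd1* down to *Nqo1*, each gene's range overlapped with that of the next in this order, whereas *Slc7a11*, at 0.0131 CPM per kilobase or less, was far below *Nqo1*. The transcript used for *Srxn1*, 7317 bases long, is longer than the gene's span in the deposited table, so its level per kilobase is a low estimate.

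The tested genes did not move as 1 block across the 12 livers. As a description on log2 CPM, where points share the feeding states and groups, Pearson's r was -0.81 between *Gclc* and *Srxn1*, 0.81 between *Txnrd1* and *Nqo1*, 0.73 between *Gsr* and *Srxn1* and 0.71 between *Srxn1* and *Nqo1*. It was 0.41 between the enzyme's subunits *Gclc* and *Gclm*. *Nfe2l2* RNA had an r between -0.17 and 0.50 with each of the others. Of all tested genes, those most like *Nqo1* were *Wdr3* (r = 0.92), *Csrp2bp* (0.90) and *Adamts1* (0.90), and those most like *Gclc* were *Pemt* (0.95), *Vtn* (0.95) and *Dhrs11* (0.95), all over the same 12 livers.

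The wider pathway was followed in 6 lists of related genes over both labels. Beside the 32.8% of all genes that passed with fasting, with a median log2 fold change of -0.0071, the list of glutathione use and supply had 8 genes higher and 2 lower among 17 tested, with a median of 0.28. By direction, 16% of all genes passed as higher and 16.8% as lower. *Glrx*, a glutaredoxin that removes glutathione from protein thiols, was between 26.8 and 49.3 CPM in fed livers and between 110 and 147 CPM in fasted livers, without overlap. It was 3.49-fold higher, a log2 fold change of 1.80 (adjusted p = 2.56e-07). *Glrx5*, a mitochondrial glutaredoxin of iron-sulfur cluster assembly, was higher by 0.88 (adjusted p = 1.22e-05), and *Oplah*, which recovers glutamate in the breakdown of glutathione, was higher by 0.86 (adjusted p = 2.72e-05). Both were without overlap between fed and fasted livers.

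In the list of NADPH supply, 5 of 6 genes passed as lower in fasted livers, with a median of -0.75. *Gsr*, *Txnrd1* and *Nqo1* draw on NADPH. The list also holds *Tkt* and *Taldo1*, pentose phosphate enzymes that do not make NADPH themselves. Of all genes, 16.8% passed as lower. *Idh1*, cytosolic isocitrate dehydrogenase, was between 430 and 536 CPM in fed and between 260 and 315 CPM in fasted livers, and fell by 0.74 on the log2 scale (adjusted p = 3.73e-05). *Pgd* fell by 0.75 (adjusted p = 0.000377) and *Tkt* by 0.77 (adjusted p = 0.000652), both of the pentose phosphate pathway. The sixth, *Me1*, encoding malic enzyme and named here as the exception after its value was seen, did not pass.

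Among 18 thioredoxin, peroxiredoxin and superoxide enzymes, 2 were higher and 5 lower, with a median of -0.064, and 4 passed without mouse 282. The background was 16% of all genes higher and 16.8% lower, so these counts are not a result particular to this list. *Txnip*, which binds and inhibits thioredoxin, was higher by 1.47 (adjusted p = 0.000696), and *Sesn2*, a stress-inducible sestrin, by 0.80 (adjusted p = 0.00528). *Sod3*, extracellular superoxide dismutase, fell by 0.72 (adjusted p = 0.000228).

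Other detoxification genes that NRF2 can induce were lower more often than higher, with 4 higher and 8 lower among 22 tested and a median of -0.17. The background was 16% of all genes higher and 16.8% lower. *Gsta3*, a glutathione transferase, was between 1530 and 1941 CPM in fed and between 644 and 1060 CPM in fasted livers, and fell by 1.03 (adjusted p = 5.92e-05). *Gstm1* fell by 1.23 (adjusted p = 0.000539). *Abcc3*, an exporter of conjugates, was higher by 0.68 (adjusted p = 0.000426). Some glutathione transferases are close paralogs among which the counting may have split reads, so the values of single members are uncertain. Whether this holds for *Gsta3* and *Gstm1* was not checked. The count of this list was between 7 and 13 over the fits that left out 1 mouse, with 7 without mouse 254, 290 or 319.

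Of 12 partners and repressors of NRF2, 1 was higher and 2 lower, with a median of 0.20. Of all genes, 16% passed as higher and 16.8% as lower. DESeq2 passed 6 of the 12, and its share of all genes is not given here. *Bach1*, a repressor that competes at antioxidant response elements, was higher by 0.54 (adjusted p = 0.00165). *Bach2*, its relative best known in lymphocytes, fell by 0.95 (adjusted p = 0.00179) and was at 7.03 CPM or less in every liver, where 5 lymphocyte markers summed to between 3.94 and 6.89 CPM. *Fyn*, a kinase linked to nuclear export of NRF2, fell by 0.54 (adjusted p = 0.00514). Of the 5 genes of heme breakdown and iron storage beside *Hmox1*, 0 passed in edgeR. The count at an unadjusted p under 0.05 was 1, *Hmox2*, at a log2 fold change of 0.24 (adjusted p = 0.0506), and DESeq2 gave it an adjusted p of 0.0342. *Hmox2* passed in edgeR with all mice under RLE normalization (adjusted p = 0.0448). It also passed in edgeR without mouse 254 (adjusted p = 0.0295), 284 (0.0357) or 319 (0.0438). *Blvra*, with -0.22 (adjusted p = 0.183, and 0.0325 without mouse 322), and *Blvrb*, with 0.09 (adjusted p = 0.659), encode the biliverdin reductases.

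**Figure D3:**
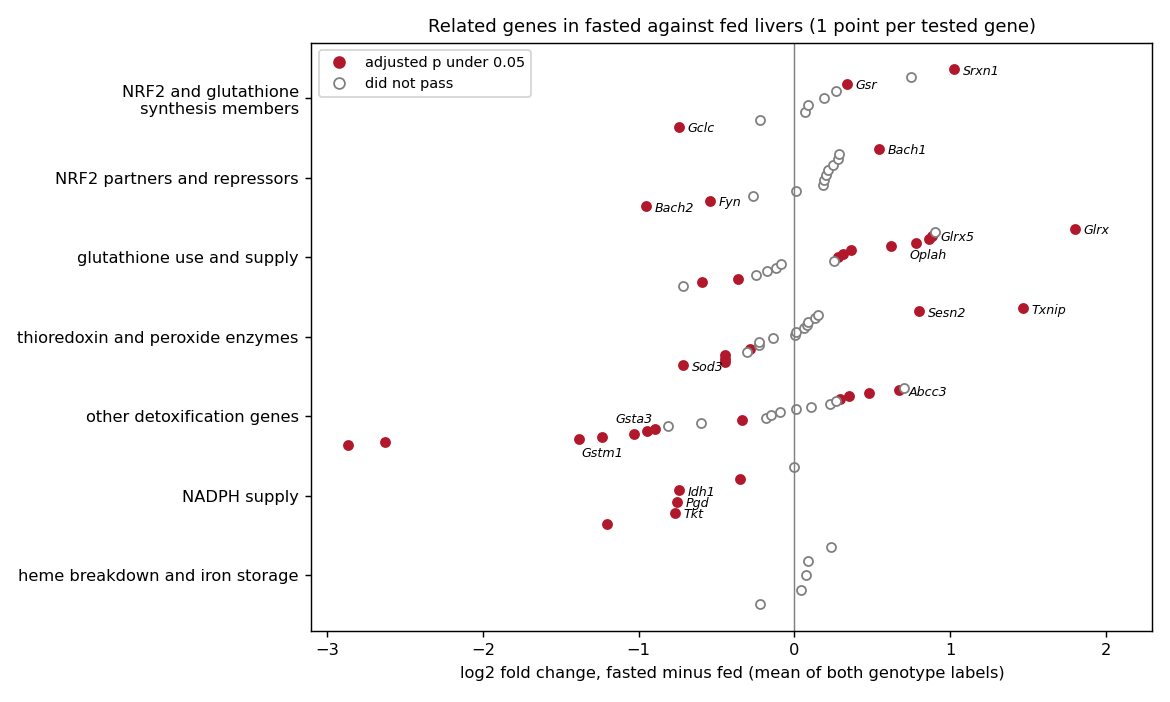
Log2 fold change with fasting, averaged over both genotype labels, for every tested gene of the 10 members and of the 6 related lists, 1 point per gene. Filled points passed an adjusted p under 0.05, and the named ones are the genes given in the text. In the list of NADPH supply, 5 of 6 genes passed as lower, and *Glrx*, at 1.80, lies farthest to the right.

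By genotype label, none of the 9 genes passed in edgeR's quasi-likelihood test in fed livers, in fasted livers, in their mean or in the difference of the fasting responses. The background was also 0 of 13812 genes, 0%, in each of the 4 comparisons, so this says nothing particular to these genes. At an unadjusted p under 0.05, 1 of the 9 genes passed in fed livers and 0 in each of the other comparisons, against 6.34% of all genes in fed livers (876 genes), 4.96% in fasted livers (685), 6.22% in their mean (859) and 4.8% for the difference of responses (663). DESeq2 passed 0 of the 9 in each, and 8, 4, 16 and 3 of all genes. Median log2 fold changes of the 9 genes, *Nts*-/- minus *Nts*+/+, were -0.037 in fed and -0.066 in fasted livers, and those of all genes were 0.010 and -0.0087.

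*Keap1* was the gene at an unadjusted p under 0.05. Fed livers labelled *Nts*+/+ were at 53.1, 65.1 and 52.4 CPM and those labelled *Nts*-/- at 42.1, 48.6 and 45.9 CPM. Every *Nts*-/- liver was below every *Nts*+/+ liver, as for 5.85% of all genes. The log2 difference was -0.32 (SE 0.14, 95% interval -0.62 to -0.020) with an adjusted p of 0.774 in edgeR, and it was -0.21 without mouse 257. In fasted livers the groups overlapped, at 68.0, 49.2 and 50.2 CPM in *Nts*+/+ and 51.7, 50.4 and 55.1 CPM in *Nts*-/-. Over both feeding states the difference was -0.20 (95% interval -0.42 to 0.0072, adjusted p = 0.788).

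*Gclm* and *Gsr* were higher without overlap in fed livers labelled *Nts*-/-, as were 4.79% of all genes. For *Gclm* the log2 difference in fed livers was 0.21 (95% interval -0.063 to 0.48, adjusted p = 0.800, and 0.12 without mouse 254) and that over both feeding states 0.18 (95% interval -0.0099 to 0.37, adjusted p = 0.788). For *Gsr* the difference was 0.20 in fed livers (95% interval -0.13 to 0.52) and -0.23 in fasted livers (95% interval -0.56 to 0.091), which is opposite in sign. The fasted difference ran from -0.39 without mouse 265 to -0.068 without mouse 322. Fasted livers labelled *Nts*-/- had a mean *Srxn1* 0.18 lower on the log2 scale, with a 95% interval from -0.48 to 0.11. It ran from -0.30 without mouse 290 to -0.12 without mouse 284. For the 9 genes with all mice, estimates ran from -0.37 to 0.21 in fed livers and from -0.28 to 0.15 in fasted livers, and the lowest of each belonged to *Hmox1*. Its estimate moved with single mice, from -0.55 without mouse 323 to -0.19 without mouse 254 in fed livers, and from -0.71 without mouse 284 to 0.38 without mouse 282 in fasted livers. *Hmox1* had the widest intervals, from -1.41 to 0.67 when fed and from -1.31 to 0.75 when fasted, so that even a 2-fold lower level is inside them.

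**Figure D4:**
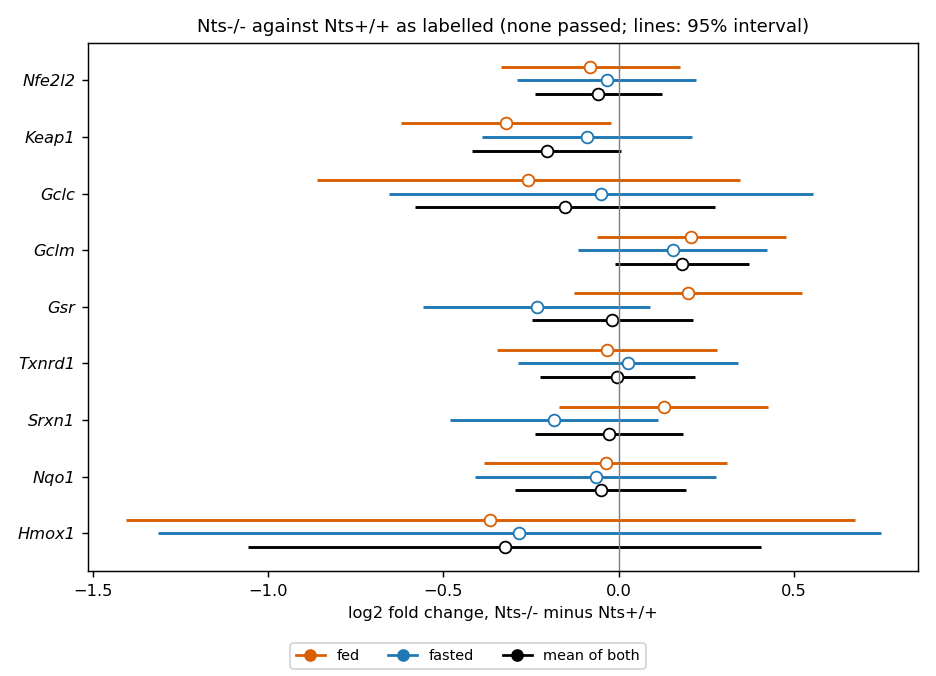
Log2 difference of each tested gene, livers labelled *Nts*-/- minus those labelled *Nts*+/+, in fed livers, in fasted livers and as their mean, with points for the edgeR estimate and bars for its 95% interval. The interval of *Keap1* in fed livers, from -0.62 to -0.020, is the single one that leaves out 0, and its adjusted p is 0.774.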

How the data were processed

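Total RNA was extracted from mouse liver and libraries were prepared from 12 mice. The authors deposited 1 table of expected counts, an estimate of each gene's reads in fractions where needed and without scaling between mice, for 48795 genes with GRCm38 positions. Submitters' processing notes name Trimmomatic, RSEM and GRCm38. The aligner, strand setting and annotation release are not given in the sources used here. Columns of other samples number 0. The study's methods name gene set enrichment analysis for these data and refer to earlier work for its details.

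Expected counts were rounded to whole counts and analysed in R 4.3.3 with edgeR 4.0.16 (filterByExpr, TMM, robust quasi-likelihood test, 1 model with a mean for each of the 4 groups), and 13812 genes were tested. A Benjamini-Hochberg adjusted p under 0.05 over all of them counted as passed. CPM is TMM-normalized. A standard error is the absolute log2 fold change divided by the square root of F, and 95% intervals use the t distribution with the fit's degrees of freedom. Log2 CPM for correlations has an offset of 0.5. Mice of a group are separate animals.

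Genes named are the 10 members, up to 3 genes of each related list with the smallest p over both labels, and the 3 genes most like *Nqo1* and *Gclc*, except where said. The members and lists were chosen with earlier results of these data known. Of 23 detoxification genes 22 were in the table, and *Ggt1* was not tested for low counts.

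Alternatives were RLE and upper-quartile normalization, DESeq2 1.42.0, a fit to only the mice compared, a minimum of 10 counts per mouse or no filter, a log2 fold change of 1 or more in size as a further condition, a threshold of 0.10 for adjusted p, and leaving out each mouse. On simulated data for the *Nts*+/+ fasting comparison with 13676 genes, 91 of 99 genes changed 4-fold and 62 of 97 changed 2-fold were recovered, with 6 of 13480 unchanged genes called. The floor of 3 counts covers counting error only.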

Additional observations from a re-analysis of the deposited data

How the results depend on the processing

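Counts of passing genes depended mostly on the fold threshold and on single mice. With a log2 fold change of 1 or more in size as a further condition, 911 genes passed for fasting in *Nts*+/+ livers, 915 in *Nts*-/- livers and 1082 in their mean, and of the 9 tested genes 1, 0 and 1. At an adjusted p under 0.10, 5 of the 9 passed in the fasting mean. The share of all genes at that threshold is not given here, so this count is not read against a background. In fed livers by genotype label, 1 gene passed with no count filter and 8 in DESeq2. In fasted livers, 4 passed in DESeq2 and 1 with only the mice compared. In the genotype mean, 1 passed with no filter, 16 in DESeq2 and 1 at an adjusted p under 0.10, and for the difference of responses 3 in DESeq2. Of the 12 NRF2 partners and repressors, 6 passed in DESeq2 and 7 at an adjusted p under 0.10. The fasting shares of all genes under these settings are not given here, so neither count is a result particular to the list.

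Leaving out 1 mouse, the count for fasting ran from 1224 (without mouse 282, with 1326 without 254 and 1596 without 257) to 2770 in *Nts*+/+, from 1358 (without mouse 277, with 1365 without 290 and 1523 without 284) to 2631 in *Nts*-/- and from 3729 to 4594 in the mean. Genotype counts ran from 0 to 2 when fed, 0 to 0 when fasted, 0 to 4 in the mean and 0 to 1 for the difference of responses. Without mouse 323 they were 2 when fed, 4 in the mean and 1 for the difference of responses, and without mouse 319 they were 2 when fed and 2 in the mean. The 9 genes passed in 1 to 3, 1 to 1 and 2 to 4 cases for the fasting comparisons. The lists ran from 7 to 10 (glutathione), 4 to 7 (thioredoxin, 4 without mouse 282), 7 to 13 (detoxification), 5 to 5 (NADPH), 3 to 4 (NRF2 partners) and 0 to 1 (heme). Among the fasting responses and the differences of responses given for single genes, signs changed with a mouse left out: *Keap1* in *Nts*+/+ ran from -0.18 to 0.081, with 0.053 without mouse 282 and 0.044 without mouse 322, *Nfe2l2* in *Nts*+/+ from -0.020 to 0.12, the *Gclc* difference of responses from -0.085 to 0.46, with -0.017 without mouse 284, and *Blvrb* from -0.069 to 0.18. The cause was not tested. None of these had passed. Of the 507 values under alternatives for the other 26 genotype comparisons of members, 48 changed sign and 0 passed. With all mice kept, the *Txnrd1* genotype mean of -0.0035 became 0.0020 under upper-quartile normalization and 0.0030 with a minimum of 10 counts per mouse.

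No paired analysis was possible because the labels do not give litters and the groups share no animal numbers. The mice are described as littermates, and any sharing of litters between groups was not modelled. Normalization moved the median of all genes by less than 0.1 on the log2 scale. Having 3 mice per group limits what these comparisons can detect. In the simulated *Nts*+/+ fasting comparison, 62 of 97 genes changed 2-fold were recovered. Far fewer genes were changed there than passed in the real data, so this recovery does not carry over to the real comparisons. *Slc7a11* was at or below the floor of 3 counts in every liver.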
